A study of Mus musculus with 3530 samples.

Results

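The Rab3 genes encode small GTPases of secretory vesicles, and all 4 mouse members, Rab3a, Rab3b, Rab3c and Rab3d, were listed among the 23355 genes of a single-cell count table from the medial prefrontal cortex (mPFC). The members were chosen by gene symbol, from a family proposed with the levels of its genes and their differences across these cells in view, and were read in all 3530 cells. The tests below therefore describe these animals and give no independent support for that choice. The study used Smart-seq2, a plate method that reads full-length transcripts of single cells without molecular identifiers, on papain-dissociated mPFC of TRAP2;Ai14 mice put through contextual fear conditioning. In such mice an inducible Cre recombinase sits at the Fos locus and switches on a tdTomato reporter in cells whose Fos gene is active while the inducer is present, so the label marks Fos activity in a time window and not a cell type.

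Each of 4 groups held 5 animals, all of them carrying TRAP2 and Ai14. Fear-Recall contributed 1342 of the cells. Context-Only gave 912, Fear-Only 841 and Homecage 435. Titles gave a gate, pos for 1806 cells and neg for 779 cells, while 849 cells of sets 1 and 5 had no gate and 96 cells of a Homecage animal came from both gates together. The gate names were taken as reporter-positive and reporter-negative sorts. Age, sex, the recall interval and the labelling schedule are not given in the sources used here, and the condition names are used as the labels spell them. Numbers 1 to 5 name sets in which the conditions share a number, with a pair of Context-Only animals numbered 5 and none numbered 1, and a Homecage animal of 1 cell entered no test. Depth per cell ran from 100002 to 6840940 reads with a median of 813078. Clustering without the Rab3 genes gave 21 clusters, which held 2384 excitatory and 1146 inhibitory cells, and named subclasses are called "-like" because the names rest on marker genes.

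The gates were checked by reads of the reporter. A reporter read was found in 8.73% ± 3.55 of neg cells (SD, n = 10 animals) and in 69.7% ± 25.1 of pos cells (n = 9 animals). The pos libraries of Homecage animal 2 (23.5%) and Context-Only animal 2 (34.5%) were the lowest, and the member differences between gates or pos groups that include them are also given without them.

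Rab3 proteins cycle between a GTP-bound form on the vesicle membrane and a GDP-bound form that a GDP dissociation inhibitor holds in the cytosol. On vesicles they bind effectors such as RIM proteins, which organise the active zone, and rabphilin, and so act at the docking and priming steps of regulated release. Rab3a is the classical synaptic vesicle member of brain, Rab3b has been tied to plasticity at inhibitory terminals, Rab3c also sits on synaptic vesicles, and Rab3d is best known from secretory granules of exocrine and endocrine cells.

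The 4 genes lie on different chromosomes, and their upstream sequences are shown because the members differed so widely in level and in cell type. In GENCODE vM21 (GRCm38), Rab3a lay on chromosome 8 from 70754679 to 70758677 on the plus strand, with 4 exons in its longest coding transcript of 1556 bases. Rab3b lay on chromosome 4 from 108879063 to 108943324 on the plus strand (5 exons, 3327 bases). Rab3c lay on chromosome 13 from 110054187 to 110280996 on the minus strand (5 exons, 8444 bases), and Rab3d on chromosome 9 from 21907491 to 21918192 on the minus strand (5 exons, 3886 bases). The Rab3a model shares 29 bases with Mpv17l2 and the Rab3b model shares 482 bases with 8030443G20Rik and 236 bases with Gm12736. Mpv17l2 and 8030443G20Rik had a median level of 0 per cell, and Gm12736 was not analysed here.

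The 250 bases before each RefSeq start site (GRCm38.p6) follow, 5′ to 3′ on the strand of the gene, with capitals at matches to a GC box (GGGCGG), a short cAMP-response motif (CGTCA) or a TATA box (TATAAA), each searched on both strands. The windows are chr8:70754453-70754702 on the plus strand for Rab3a (1 of 2 start sites listed), chr4:108878820-108879069 on the plus strand for Rab3b, chr13:110280207-110280456 on the minus strand for Rab3c and chr9:21918184-21918433 on the minus strand for Rab3d. The Rab3c window falls inside the GENCODE gene, in the intron between alternative first exons.
Rab3a: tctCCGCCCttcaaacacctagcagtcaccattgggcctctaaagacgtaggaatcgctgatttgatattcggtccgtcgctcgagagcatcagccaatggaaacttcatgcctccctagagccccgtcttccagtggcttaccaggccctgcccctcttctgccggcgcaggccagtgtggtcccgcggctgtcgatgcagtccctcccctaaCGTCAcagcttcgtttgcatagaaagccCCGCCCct
Rab3b: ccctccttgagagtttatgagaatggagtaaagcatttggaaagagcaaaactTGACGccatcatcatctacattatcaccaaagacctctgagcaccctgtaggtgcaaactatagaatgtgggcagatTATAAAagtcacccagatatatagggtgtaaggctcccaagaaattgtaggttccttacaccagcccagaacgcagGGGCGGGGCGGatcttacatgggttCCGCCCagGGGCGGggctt
Rab3c: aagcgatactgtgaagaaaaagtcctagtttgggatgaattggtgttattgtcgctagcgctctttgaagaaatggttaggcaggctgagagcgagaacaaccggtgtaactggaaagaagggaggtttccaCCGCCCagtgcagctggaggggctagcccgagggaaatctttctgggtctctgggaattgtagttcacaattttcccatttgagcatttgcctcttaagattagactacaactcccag
Rab3d: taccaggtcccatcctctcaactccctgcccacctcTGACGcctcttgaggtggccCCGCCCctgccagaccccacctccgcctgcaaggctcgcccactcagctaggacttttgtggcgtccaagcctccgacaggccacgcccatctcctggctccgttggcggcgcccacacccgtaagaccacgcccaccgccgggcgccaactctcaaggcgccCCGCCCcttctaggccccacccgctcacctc
Every window held at least 1 GC box (2 in Rab3a, 4 in Rab3b of which a pair overlap, 1 in Rab3c and 2 in Rab3d), a motif present in 32.9% of the upstream windows of the 27025 genes with one. The CGTCA motif occurred in Rab3a, Rab3b and Rab3d and not in the Rab3c window, against 17.9% of all windows. TATAAA occurred in Rab3b alone, 120 bases upstream of the start, against 12.97% of all windows. The full cAMP-response element TGACGTCA (1.62% of windows), the AP-1 motif TGANTCA (6.87%) and the E-box CACGTG (6.05%) matched none of the 4 windows. The base composition set the windows apart too, at 69.2% GC with 18 CpG in Rab3d and 58.8% with 16 CpG in Rab3a, against 48.8% with 6 in Rab3b and 47.6% with 7 in Rab3c, where all windows averaged 53.0% with a median of 6. These matches describe letters only.

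Rab3a was the common member. Reads of Rab3a were found in 98.4% of cells (3474 of 3530) and made up 66.9% of all Rab3 reads. Rab3c was read in 93.03% of cells (3284) and gave 18.04% of Rab3 reads. Rab3b was read in 54.5% of cells (1924) but gave 14.8% of the reads, and Rab3d was read in 13.3% of cells (470) with 0.210% of the reads. With each cell thinned to 100000 reads the shares of cells were 98.1%, 89.9%, 53.1% and 10% for Rab3a, Rab3c, Rab3b and Rab3d, the same order as at full depth. Most neurons held several members at once: 1347 cells (38.2%) had reads of 2 members, 1794 (50.8%) of 3 and 236 (6.69%) of all 4.

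The members also differed in how far animals spread. Over 19 animals with 10 or more cells, reads summed per animal gave Rab3a 1511 ± 198.8 CPM (SD), CPM being the counts-per-million unit, with a range of 1155 to 1913. The corresponding Rab3c level was 450 ± 159.4 CPM (232.1 to 846), and Rab3d stood at 5.67 ± 3.30 CPM. Rab3b ran from 11.6 to 797 CPM with a mean of 340 ± 181.3. Its low end was Homecage animal 4, with 17 cells, and the other 18 animals ran from 153.2 to 797 CPM (358 ± 167.7). Full-length libraries give longer transcripts more reads, so levels of different genes were compared per kilobase of the longest coding transcript. On that scale the means were 971 CPM per kb for Rab3a, 102.1 for Rab3b, 53.2 for Rab3c and 1.46 for Rab3d, so Rab3b exceeded Rab3c per length and not in reads. With the length of all exons in place of the transcript, an alternative chosen after seeing the data, the values were 679, 96.4, 37.3 and 1.352.

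Inhibitory neurons held more Rab3b and Rab3c than excitatory neurons of the same animals. Among 17 animals with 10 or more cells of both classes, Rab3b averaged 684 ± 278 CPM in inhibitory and 201.9 ± 101 CPM in excitatory cells and was higher in inhibitory cells in 17 of 17. Rab3c averaged 855 ± 373 against 231 ± 82.8 CPM, again higher in 17 of 17, and the lowest inhibitory value lay above the highest excitatory value. Rab3a was nearly level between the classes, at 1590 ± 245 against 1506 ± 161 CPM (higher in 13 of 17). Rab3d went the other way, at 3.54 ± 3.59 CPM in inhibitory and 5.69 ± 2.94 CPM in excitatory cells (higher in inhibitory cells in 2 of 17). These class and subclass levels are descriptions without a test, because the family was picked with the pattern of its genes in view. The share of all genes that separate classes or subclasses in this way, here or below, was not counted.

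**Figure D1:**
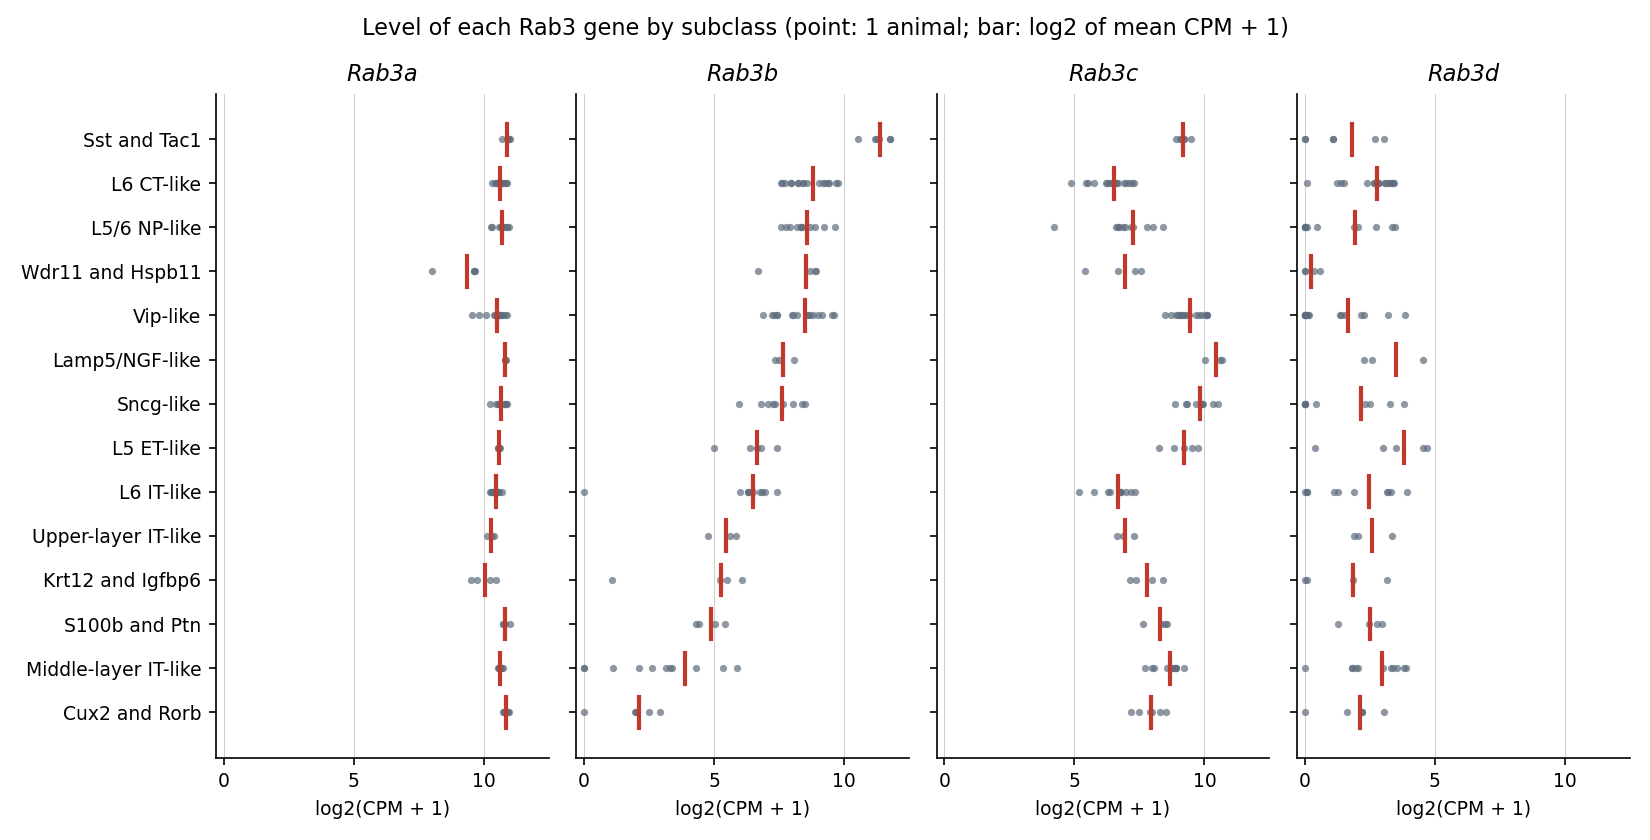
Level of each Rab3 gene in 14 of the 15 subclasses, on a log2 scale of CPM plus 1; each point is the sum over the cells of 1 animal with 10 or more cells and each bar the log2 of the mean. Rab3a stays in a narrow band, Rab3b runs from 3.36 CPM in the Cux2 and Rorb cluster to 2633 CPM in the Sst and Tac1 cluster, and Rab3c is highest in Lamp5 or neurogliaform-like cells at 1411 CPM.

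Rab3b, the member tied to plasticity at inhibitory terminals, had the steepest subclass pattern. Its level was 2633 ± 749 CPM in an inhibitory cluster led by Sst and Tac1 (n = 6 animals, 1493 to 3472). That cluster led with the peptide genes of somatostatin interneurons but scored higher for Pvalb markers, so it is called by its leading genes. Layer 6 corticothalamic-like cells, the deep-layer neurons that project to thalamus, came next with 442 ± 225 CPM (n = 17 animals, 191 to 863), and the ranges of these first and second subclasses did not overlap. From there down every neighbouring pair overlapped: layer 5/6 near-projecting-like cells had 381 ± 181.4 CPM (n = 11), a cluster led by Wdr11 and Hspb11 had 366 ± 177.8 (n = 4) and Vip-like interneurons had 365 ± 207.3 (n = 16, 117.9 to 787).

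The lower end of the Rab3b order was excitatory. Lamp5 or neurogliaform-like (201.6 ± 56.4 CPM, n = 3) and Sncg-like interneurons (197 ± 101.6, n = 9) stood above layer 5 extratelencephalic-like (99.1 ± 50.3, n = 5) and layer 6 intratelencephalic-like neurons (90.5 ± 44.5, n = 10). Rab3b reached 43.1 ± 15.5 CPM in upper-layer (n = 3) and 13.8 ± 18.6 CPM in middle-layer intratelencephalic-like neurons (n = 11). The lowest mean was 3.36 ± 2.18 CPM in an excitatory cluster led by Cux2 and Rorb (n = 6). Deep corticothalamic and near-projecting types therefore carried Rab3b at the level of Vip-like interneurons, while intratelencephalic types carried less.

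Rare interneurons could be read only as pooled cells, since no animal had 10 of them. The 27 Sst-like cells, led by Crhbp and Nos1, pooled to 3030 CPM of Rab3b and 1167 CPM of Rab3a, and the 51 Pvalb-like cells to 263.7 CPM of Rab3b and 2065 CPM of Rab3a. No Rab3d read was found in either set, which at 3 counts of the total allows a share of cells with a read of up to 11.1% of the Sst-like and 5.88% of the Pvalb-like cells. Per kilobase, Rab3b was the leading member in 40.7% of Sst-like cells and in 20.5% of cells of the Sst and Tac1 cluster. Rab3a led in 97.2% of excitatory and in 91.7% of inhibitory cells overall.

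The share of cells with a Rab3b read followed the levels in most subclasses. It was 75.1% of inhibitory cells (exact binomial interval 72.5 to 77.6%) and 44.6% of excitatory cells (42.6 to 46.6%). All 27 Sst-like cells had a read, as did 98.4% of the Sst and Tac1 cluster, 92.2% of Pvalb-like, 80.9% of near-projecting-like and 78.8% of corticothalamic-like cells. The share was 68.0% in Vip-like, 44.4% in layer 6 intratelencephalic-like and 14.02% in middle-layer intratelencephalic-like cells, and it was 8.37% in the Cux2 and Rorb cluster. Intervals cover counting error only.

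**Figure D2:**
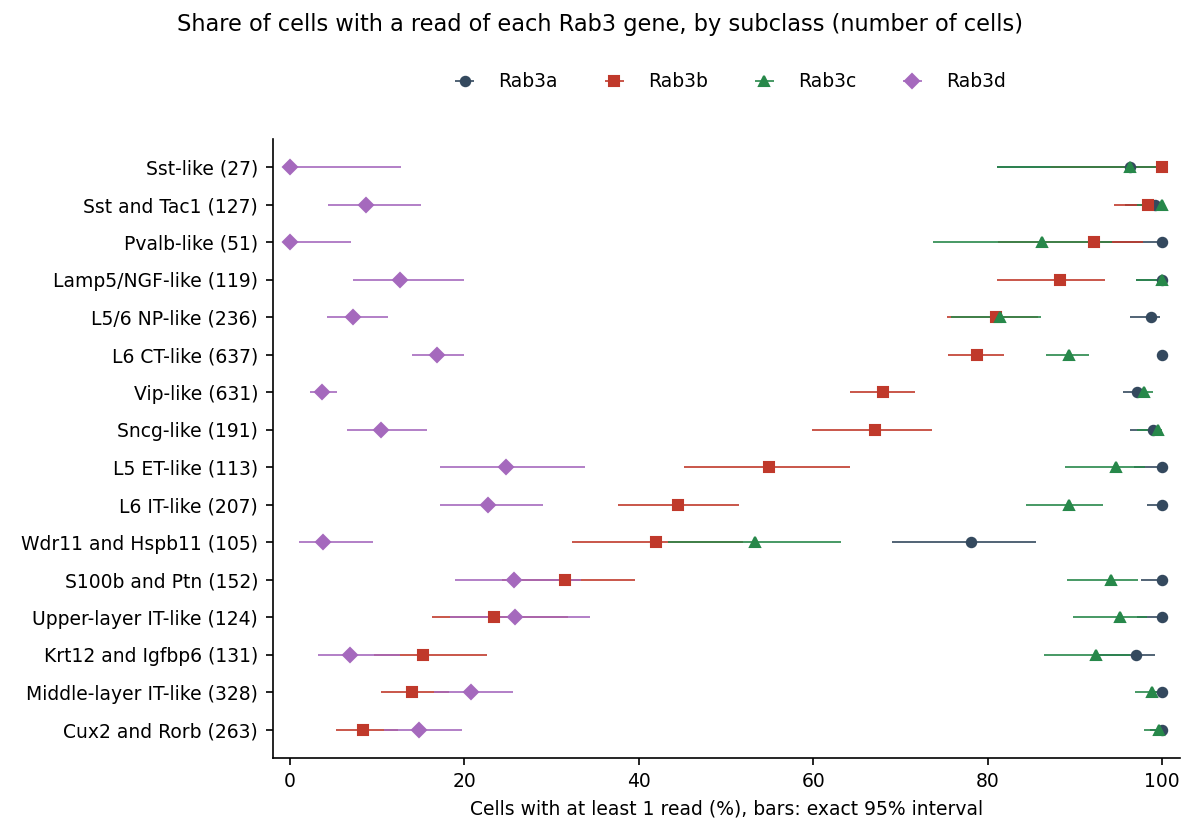
Share of cells with at least 1 read of each Rab3 gene by subclass, in percent, with exact 95% binomial intervals as bars and the number of cells beside each name. Rab3a is near 100% except in the Wdr11 and Hspb11 cluster (78.1%), Rab3b spans 8.37% to 100% among the subclasses drawn, and Rab3d stays at or under 25.8%.

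Rab3c, the other widespread synaptic vesicle member, had a different order. It was highest in Lamp5 or neurogliaform-like cells at 1411 ± 323 CPM (n = 3 animals, 1043 to 1643), followed by Sncg-like cells (913 ± 326, n = 9) and Vip-like cells (701 ± 248, n = 16). Layer 5 extratelencephalic-like neurons, the cells that project out of the cortex, had 588 ± 220 CPM (n = 5), the highest excitatory mean, beside 581 ± 81.5 CPM in the Sst and Tac1 cluster. Middle-layer intratelencephalic-like neurons, which were nearly without Rab3b, had 403 ± 116 CPM of Rab3c (n = 11). The lowest mean, 90.7 ± 36.8 CPM, was in layer 6 corticothalamic-like cells (n = 17, 28.2 to 153.8), which stood second for Rab3b. No neighbouring pair in the Rab3c order was separated by its ranges.

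Rab3a and Rab3d varied less across subclasses relative to their spread. Subclass means of Rab3a lay between 1015 and 1917 CPM in 14 of 15 subclasses. The exception was the cluster led by Wdr11 and Hspb11 at 662 ± 270.6 CPM (256.4 to 811), which also had few genes per cell (median 3160). Rab3d, the secretory granule member, was highest in layer 5 extratelencephalic-like cells at 13.01 ± 10.5 CPM and in Lamp5 or neurogliaform-like cells at 10.4 ± 10.3 CPM. Its means were 5.77 ± 3.04 CPM in corticothalamic-like, 2.15 CPM in Vip-like and 0.19 CPM in Wdr11 and Hspb11 cells, and no neighbours separated. A Rab3d read was found in 16.8% of excitatory and 6.02% of inhibitory cells.

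Each member resembled different genes across the 15 subclasses. Likeness was Pearson's r of log2(CPM + 1) over subclass means that share libraries and depth, ranked among 8244 genes, and it is given without a test. Rab3a was most like Rab11b, Aamp, Mrps2, Cend1 and Syngr3 (r = 0.94 for each). Rab3b was most like Wasf3 and Agap1 (0.87), then Prdx3, Zcchc12 and Wwox (0.86). Rab3c was most like Eif4ebp2 (0.89), Ankrd50 (0.86), Tcf4 (0.85), Repin1 and Cntnap2 (0.84). For Rab3d the nearest genes were Nup85 and Slc11a2 (0.88), Aagab (0.86), Fkbpl and Vipas39 (0.85). Between members r was 0.07 for Rab3a with Rab3b, 0.06 for Rab3b with Rab3c, 0.38 for Rab3a with Rab3c, 0.60 for Rab3a with Rab3d, 0.32 for Rab3c with Rab3d and -0.22 for Rab3b with Rab3d, so the subclass order of Rab3b matched that of no other member.

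Comparing pos with neg neurons of the same animal asks how labelled neurons differ from unlabelled neighbours. Rab3b and Rab3c stood higher in the pos than in the neg sums of most animals, and neither passed the test. Sums of 8 animals were compared with the animal as a block in edgeR, where 0.287% of genes (51 of 17752) passed an adjusted p of 0.05 and none of the 4 members did. In Context-Only animals 2, 3 and 4, Rab3b went from 249 to 653, from 312 to 548 and from 317 to 422 CPM (scaled by the trimmed mean of M-values, as are all values of tested sums). In Fear-Only animals 2 and 3 it went from 242.5 to 565 and from 228 to 360 CPM. In Fear-Recall animals 2 and 3 the values were 149 to 259 and 335 to 282 CPM, and in Homecage animal 2 they were 422 to 595 CPM.

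Rab3b was thus higher in pos neurons in 7 of 8 animals, Fear-Recall animal 3 being the exception, while the ranges of the gates overlapped. The mean was 282 ± 82.6 CPM in neg and 460 ± 150 CPM in pos, a log2 difference of 0.69 (SE 0.17, edgeR adjusted p = 0.145). In DESeq2 the same difference of 0.70 had an adjusted p of 0.00336, in a fit that called 3.64% of genes. On simulated counts without animal or set effects, DESeq2 made more false calls than its threshold allows and edgeR did not. DESeq2 values are therefore given only beside those of edgeR. Without Context-Only animal 2 the edgeR difference was 0.60 (adjusted p = 0.263), and without Homecage animal 2 it was 0.73 (adjusted p = 0.158).

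The pos value of Rab3c exceeded the neg value in 8 of 8 animals, as it did for 1.76% of all genes. Its values went from 225 to 365, from 358 to 370 and from 406 to 483 CPM in Context-Only animals 2, 3 and 4. They went from 144.1 to 318 and from 338 to 427 CPM in Fear-Only animals 2 and 3, from 206.8 to 323 and from 317 to 353 CPM in Fear-Recall animals 2 and 3, and from 242.95 to 427 CPM in Homecage animal 2. The gates overlapped across animals although each animal moved the same way. The mean was 280 ± 88.7 CPM in neg and 383 ± 57.3 CPM in pos, a log2 difference of 0.51 (SE 0.13, edgeR adjusted p = 0.197; DESeq2 adjusted p = 0.0136). Without Context-Only animal 2 it was 0.49, and without Homecage animal 2 it was 0.47.

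Rab3a and Rab3d did not stand higher in the pos sums of most animals in this way. Rab3a averaged 1475 ± 52.5 CPM in neg and 1466 ± 280 CPM in pos (log2 difference -0.03, SE 0.12, higher in 5 of 8), the wider pos spread including the Homecage 2 library at the low end. Rab3d averaged 4.29 CPM in neg and 3.06 CPM in pos (log2 difference -0.73, SE 0.82, higher in 2 of 8). Without Homecage animal 2 the differences were 0.06 for Rab3a and -0.27 for Rab3d, and without Context-Only animal 2 they were -0.0013 and -0.60.

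**Figure D3:**
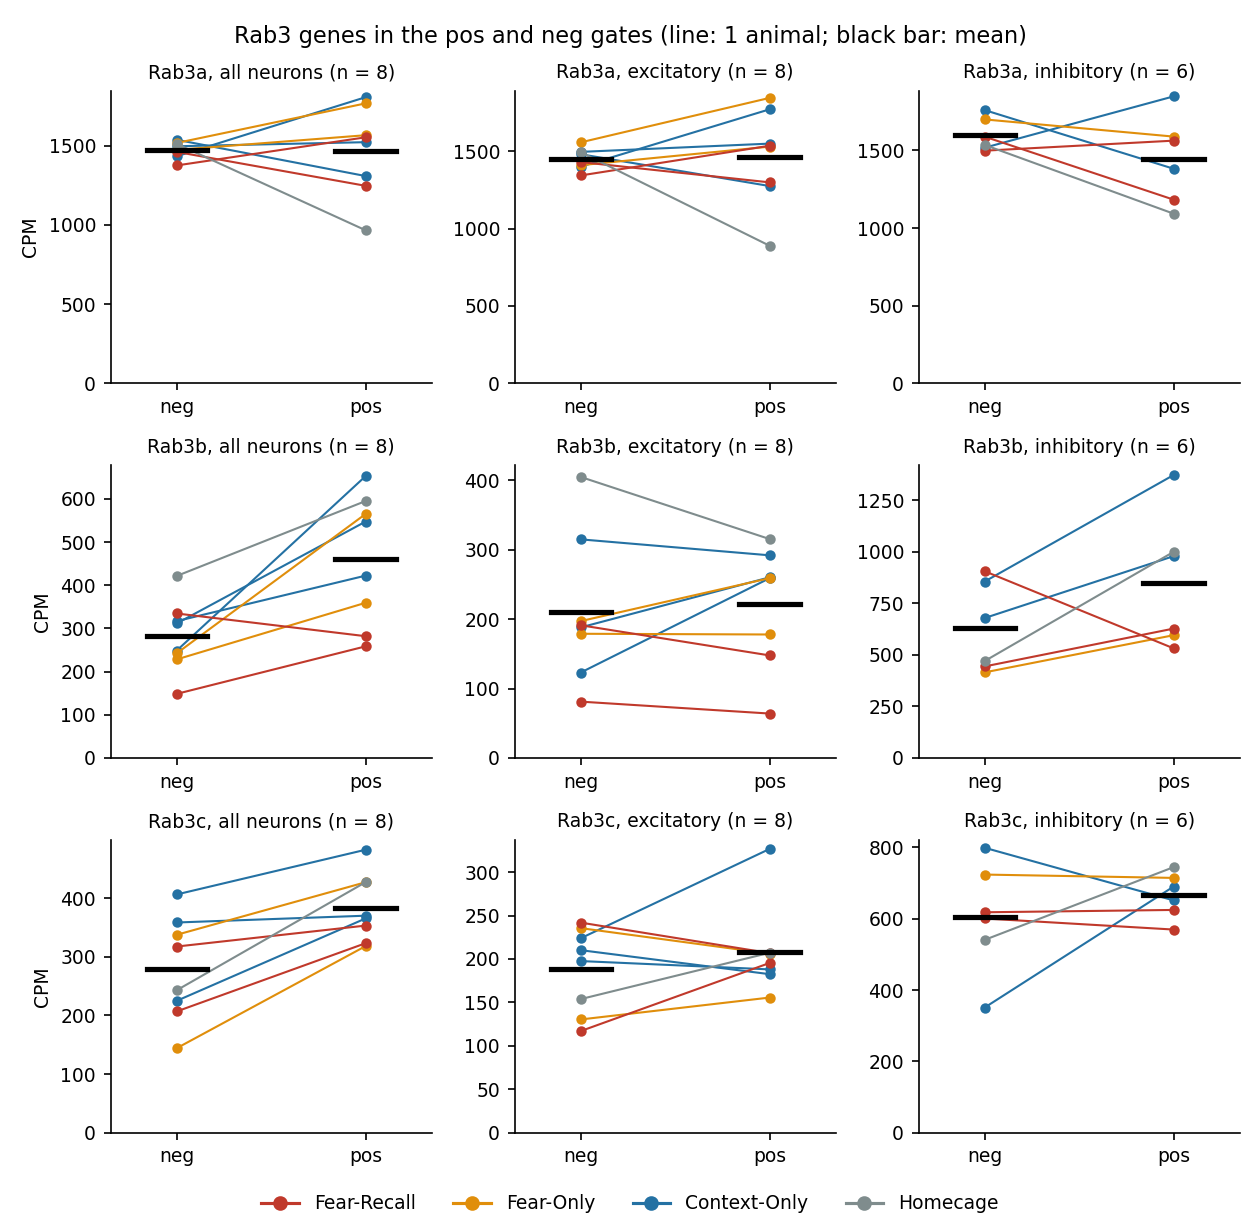
Levels of Rab3a, Rab3b and Rab3c in CPM in neg and pos sums, for all, excitatory and inhibitory neurons; each line is 1 animal, coloured by condition, and black bars are means. Over all neurons Rab3b averages 282 CPM in neg and 460 CPM in pos and Rab3c 280 and 383 CPM, while within excitatory neurons the means are 210 and 222 CPM for Rab3b and 188.8 and 209 CPM for Rab3c.

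The make-up of the gates differed beside these values. Inhibitory cells were 37.8% ± 4.18 of pos and 19.1% ± 4.06 of neg cells (higher in pos in 8 of 8 animals), and Vip-like cells were 23.3% ± 3.79 and 8.13% ± 2.86. In bulk sums, more cells of a type and more RNA per cell cannot be told apart. Within excitatory cells, where 0.0119% of genes passed, the log2 difference was 0.09 for Rab3b (SE 0.17, higher in 3 of 8) and 0.16 for Rab3c (SE 0.13, higher in 4 of 8). Without Context-Only animal 2 these were -0.05 and 0.19, and without Homecage animal 2 they were 0.15 and 0.12. Within inhibitory cells of 6 animals, where 0% of genes passed edgeR (1415 had an unadjusted p under 0.05) and 2.02% passed DESeq2, Rab3b averaged 628 ± 217.1 CPM in neg and 851 ± 325 CPM in pos. That log2 difference was 0.43 (SE 0.23, edgeR adjusted p = 0.600, higher in 5 of 6), and it was 0.07 once cells were thinned to equal depth. Rab3c in inhibitory cells differed by 0.17 (SE 0.19, higher in 3 of 6). Without Context-Only animal 2 the inhibitory differences were 0.39 for Rab3b and 0.02 for Rab3c, and without Homecage animal 2 they were 0.29 and 0.11. The difference of the Rab3b gate effects between the classes was 0.37 (SE 0.40, edgeR adjusted p = 1), which leaves a range too wide to call them alike, and it was 0.47 without Context-Only animal 2 and 0.11 without Homecage animal 2. In that fit 0% of genes passed edgeR, 893 had an unadjusted p under 0.05 and 0.594% passed DESeq2.

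In layer 6 corticothalamic-like cells, the best sampled excitatory subclass, pos values of Rab3b were above neg values in 5 of 5 animals, as they were for 5.76% of genes. The pairs were 452 and 692 CPM in Context-Only animal 3, 496 and 785 in Context-Only animal 4, 253 and 390 in Fear-Only animal 3, 178.7 and 234 in Fear-Recall animal 2, and 332 and 340 in Fear-Recall animal 3. The gap was smallest in the Fear-Recall animals. The log2 difference was 0.46 (SE 0.11, edgeR adjusted p = 0.452), no gene passed edgeR in this subclass (1162 had an unadjusted p under 0.05), and DESeq2 gave an adjusted p of 0.0205 with 1.57% of genes called. Rab3a differed by 0.17 (5 of 5, edgeR adjusted p = 0.604) and Rab3c by -0.32 (higher in 2 of 5). When the Sst and Tac1 and the Sst-like clusters were left out of the sums, a choice made after seeing the data, unscaled Rab3b was 236 CPM in neg and 273.6 CPM in pos against 292 and 438 CPM with them. Pos was higher in 7 of 8 animals in both cases, but the exception was Fear-Recall animal 3 with the clusters (363 to 292 CPM) and Homecage animal 2 without them (389 to 283 CPM).

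Cells with and without a reporter read were also compared, whatever their gate, within 16 animals, where 2.24% of genes passed edgeR and 6.46% passed DESeq2. Rab3a averaged 1489 ± 225 CPM in cells with no reporter read and 1610 ± 172.7 CPM in cells with one (log2 difference 0.12, SE 0.05, edgeR adjusted p = 0.195, higher in 13 of 16). At equal depth the difference was 0.18 with an edgeR adjusted p of 0.0495, just under the threshold. The share of all genes that passed in that equal-depth fit is not given here. Rab3b (-0.14, SE 0.14), Rab3c (-0.01) and Rab3d (-0.39) were higher in reporter-read cells in 6, 9 and 6 of 16 animals. Reporter-read cells had a median of 782478 reads and 7127 genes, and reporter-free cells 850313 reads and 6060 genes. The part of the difference in genes per cell was not tested.

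Among pos neurons, Fear-Recall against Context-Only compares labelled cells of animals that differ in training and recall history as the names give it. Rab3b was lower in Fear-Recall in each animal of that group than in each Context-Only animal, and no gene passed edgeR (0% of 20381, with 688 at an unadjusted p under 0.05, against 0.118% in DESeq2). In Context-Only animals 2, 3 and 4 the Rab3b level was 653, 547 and 424 CPM (541 ± 114.6). In Fear-Recall animals 2, 3 and 4 it was 259, 281.2 and 140 CPM (226.8 ± 75.8). In Fear-Only animals 2 and 3 it was 563 and 358 CPM (461 ± 145). The highest Fear-Recall value lay below the lowest of both other groups, and Fear-Only overlapped Context-Only.

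The log2 difference of Rab3b, Fear-Recall minus Context-Only, was -1.25 (SE 0.34, edgeR adjusted p = 0.970, unadjusted p = 0.00495), rank 21 of all genes by p. Fear-Recall lay wholly below Context-Only for 3.28% of genes. DESeq2 gave -1.29 with an adjusted p of 0.175. With the set number as a block the difference was -1.29 (SE 0.21, edgeR adjusted p = 0.521), and within sets 2, 3 and 4 Context-Only exceeded Fear-Recall 2.52-fold, 1.94-fold and 3.02-fold. Leaving out each animal in turn gave -1.44 to -1.0, and -1.09 without Context-Only animal 2, whose pos library had few reporter reads.

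Fear-Recall minus Fear-Only, which shares the Fear-Recall animals, was -1.02 for Rab3b (SE 0.37, edgeR adjusted p = 1), and Fear-Recall lay wholly below Fear-Only for 10.6% of genes. Fear-Only minus Context-Only was -0.23 (SE 0.38). Both contrasts had 0% of genes past edgeR, with 384 and 514 at an unadjusted p under 0.05, and 0.0343% and 0.0883% past DESeq2. The differences of the other members were all within 1 SE of 0. For Rab3a, Fear-Recall minus Context-Only was -0.15 (SE 0.23) with 1393 ± 150 against 1546 ± 248 CPM. For Rab3c it was -0.07 (SE 0.27) with 387 against 406 CPM, and 0.04 at equal depth, and for Rab3d 0.56 (SE 0.96) with 5.17 against 3.5 CPM. Without Context-Only animal 2 these were -0.26 for Rab3a, -0.14 for Rab3c and -0.0018 for Rab3d, and Fear-Only minus Context-Only was -0.08 for Rab3b.

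**Figure D4:**
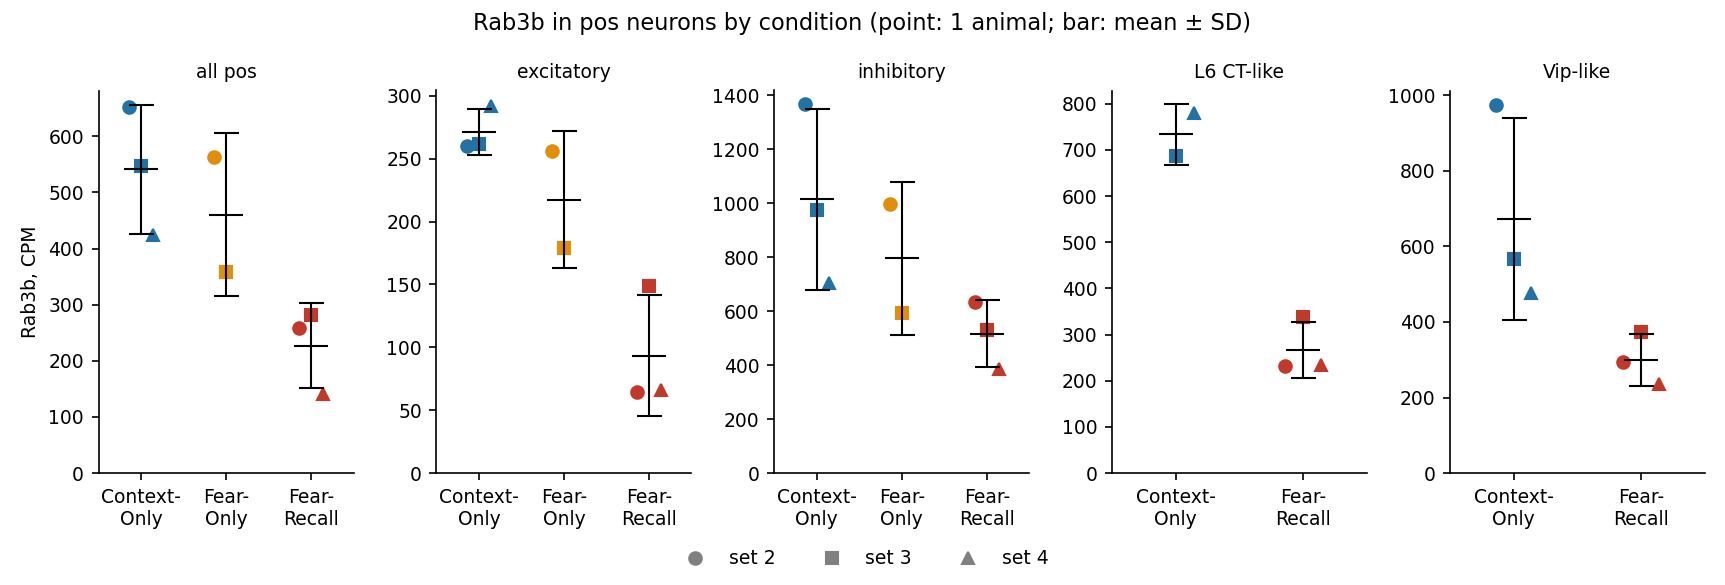
Rab3b in CPM in pos neurons by condition, for all, excitatory, inhibitory, layer 6 corticothalamic-like and Vip-like neurons; each point is 1 animal, its shape gives the set, and bars are mean ± SD. Fear-Recall animals lie below Context-Only animals in every panel, at 226.8 against 541 CPM over all pos neurons and 93.3 against 271.3 CPM in excitatory neurons.

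The lower Rab3b values in Fear-Recall were present within the excitatory class. There Context-Only animals 2, 3 and 4 had 260, 262 and 292 CPM (271.3 ± 17.9). Fear-Recall animals had 64.7, 149 and 66.4 CPM (93.3 ± 48.02), and Fear-Only animals 2 and 3 had 256.2 and 178.97 CPM. No Fear-Recall value reached either other group, as held against Context-Only for 3.5% and against Fear-Only for 11% of genes. The log2 difference from Context-Only was -1.54 (SE 0.36, edgeR adjusted p = 0.95, rank 11 of 19339 genes, of which 0 passed and 762 had an unadjusted p under 0.05), and DESeq2 gave -1.58 with an adjusted p of 0.0432 while calling 0.134% of genes. Without Context-Only animal 2 the edgeR difference was -1.57 (adjusted p = 1).

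Inhibitory cells gave a smaller Rab3b difference in the same direction. Context-Only animals had 1368, 973 and 702 CPM, Fear-Recall animals 633, 530 and 387 CPM, and Fear-Only animals 996 and 594 CPM. The Fear-Recall values lay below all Context-Only values, as for 2.77% of genes, and overlapped Fear-Only. The log2 difference was -0.97 (SE 0.37, edgeR adjusted p = 0.986), and -0.68 without Context-Only animal 2. No gene passed edgeR here (708 had an unadjusted p under 0.05), and 0.211% passed DESeq2. Whether the excitatory and inhibitory differences differ from each other was not tested.

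Within layer 6 corticothalamic-like cells, Rab3b was 687 and 780 CPM in Context-Only animals 3 and 4. It was 231.9, 338 and 233 CPM in Fear-Recall animals 2, 3 and 4. With only 5 animals, groups lay apart in this direction for 9.92% of genes. The log2 difference was -1.46 (SE 0.26, edgeR adjusted p = 1, unadjusted p = 0.000401, rank 2 of 14683 genes, of which 0 passed and 679 had an unadjusted p under 0.05), and DESeq2 gave -1.45 with an adjusted p of 0.00128 and 0.484% of genes called. Unscaled Fear-Only values were 571 and 371 CPM, between the groups. A Rab3b read was found in 92.1 to 100% of the Context-Only cells and in 51.5 to 92.9% of the Fear-Recall cells of this subclass.

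Vip-like interneurons, which inhibit other interneurons, gave Rab3b values of 976, 566 and 476 CPM in Context-Only and 293.3, 372 and 235.4 CPM in Fear-Recall animals 2, 3 and 4. All Fear-Recall values were lower, as for 3.27% of genes. The log2 difference was -1.16 (SE 0.44, edgeR adjusted p = 1), and -0.74 without Context-Only animal 2. Of 13653 genes 0 passed edgeR, 246 had an unadjusted p under 0.05 and 0.146% passed DESeq2. The shares of Vip-like cells with a Rab3b read overlapped, at 57.9 to 83.3% in Context-Only and 65.4 to 76.5% in Fear-Recall. The 57.9% was Context-Only animal 2, and Context-Only animals 3 and 4 had 83.1% and 83.3%, above every Fear-Recall animal.

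Different clusters fill these subclasses in the groups, so single clusters were read as well, in unscaled CPM. Cluster 1, led by Rprm, held 64.3% of the corticothalamic-like pos cells in Context-Only and 81.2% in Fear-Recall. In it Rab3b was 648 CPM in Context-Only animal 3, 575 and 383 CPM in Fear-Only animals 2 and 3, and 261.1 and 348 CPM in Fear-Recall animals 2 and 3. Cluster 5, led by Sla and Foxp2, gave 793 CPM in Context-Only animal 4 and 250.6 CPM in Fear-Recall animal 4. Among Vip-like clusters, cluster 2, led by Crispld2 and Penk, gave 329 and 440 CPM in Context-Only, 270, 239.4 and 218 CPM in Fear-Recall and 209 and 157.2 CPM in Fear-Only. Cluster 6, led by Car4 and Zbtb20, gave 773 CPM in Context-Only animal 3, 979 and 674 CPM in Fear-Only and 363 and 533 CPM in Fear-Recall. Cluster 18, led by Tac2, held 26.1% of the Vip-like pos cells in Context-Only, 29 of its 30 there being from animal 2, and 8.23% in Fear-Recall and 2.54% in Fear-Only. In it Rab3b was 890 CPM in Context-Only animal 2 and 254 CPM in Fear-Recall animal 2. Fear-Recall was below Context-Only in each of these 5 clusters, with 1 to 3 animals a group and no test. Fear-Only stood below Fear-Recall in cluster 2 and above it in cluster 6. All 5 clusters belong to the corticothalamic-like and Vip-like subclasses, where Rab3b was already lower in Fear-Recall. Group values of the other pos subclasses are not given here, so a difference across cell types in general is not shown. Nor is the share of all genes lower in all 5 clusters given.

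Cell make-up and other markers stood as follows beside the Rab3b values of pos neurons. The Sst and Tac1 and Sst-like clusters, the richest in Rab3b, were 4.01% of Context-Only, 4.62% of Fear-Only and 3.20% of Fear-Recall pos cells. Without them unscaled Rab3b was 342 ± 10.6 CPM in Context-Only, 267.2 ± 13.97 in Fear-Only and 152.2 ± 51.7 in Fear-Recall, against 508 ± 58.8, 459 ± 130 and 238 ± 73.9 CPM with them. Pos cells of Homecage animal 2 had 283 CPM without these clusters and 505 CPM with them. Inhibitory cells were 37.7%, 39.96% and 31.8% of pos cells in Context-Only, Fear-Only and Fear-Recall. Among types low in Rab3b, middle-layer intratelencephalic-like cells were 9.17%, 0.173% and 16.01% in the same order. Their Context-Only (0.69 to 25%) and Fear-Recall (2.77 to 36.75%) ranges overlapped. Upper-layer intratelencephalic-like cells were 1.67%, 1.16% and 3.08%, and the Cux2 and Rorb cluster 6.85%, 14.8% and 9.29%. The S100b and Ptn cluster was 4.45%, 4.3% and 6.5%. The Krt12 and Igfbp6 cluster went the other way, at 8.57%, 4.52% and 1.62%. Among types with more Rab3b, Vip-like cells were 23.1%, 24.6% and 19.2%, and corticothalamic-like cells 14.8%, 15.9% and 14.5%. The Wdr11 and Hspb11 cluster was 4.14%, 2.17% and 1.62%. Shares within the excitatory class are not given here. The summed level of 10 oligodendrocyte markers ran from 172 to 292 CPM in Context-Only and from 78.6 to 113 CPM in Fear-Recall without overlap, Mbp holding 68.1% of that list's reads. The other lists overlapped between these groups: astrocyte 209 to 255 against 203.96 to 255 CPM, microglia 13.99 to 39.8 against 29.3 to 68.9 CPM and endothelial and mural 973 to 1323 against 746 to 1040 CPM, with Bsg holding 97.6% of the last. No tested marker of these lists was at 0 throughout, median depth was 987262 reads in Context-Only and 696685 in Fear-Recall pos cells, and the part of these in the result was not tested, except that thinning to equal depth left the Rab3b difference at -1.28.

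The Rab3b groups overlapped in neg neurons and in sums of all cells, and whether the pos order differs from these was not tested. In neg neurons the level was 249, 312 and 317 CPM in Context-Only animals 2, 3 and 4 and 149 and 335 CPM in Fear-Recall animals 2 and 3, which overlap. Neg values were 242.5 and 228 CPM in Fear-Only animals 2 and 3 and 422 CPM in Homecage animal 2. Outside these tested sums, unscaled neg values were 254 CPM in Fear-Only animal 4 (39 cells) and 11.6 CPM in Homecage animal 4 (17 cells). Over all cells of 19 animals, which include the pos cells, 0% of 19698 genes passed edgeR in any of 6 contrasts, with at most 1745 at an unadjusted p under 0.05. DESeq2 called 0.0102% in Fear-Recall minus Fear-Only, 0.0305% in Fear-Recall minus Context-Only and 0.0457% in Fear-Only minus Context-Only. Against Homecage it called 0.442% for Fear-Recall, 0.467% for Fear-Only and 0.371% for Context-Only. Rab3b was 249 ± 69.3 CPM in Fear-Recall (139 to 312), 391.8 ± 131 in Fear-Only, 354 ± 178.7 in Context-Only and 394 ± 361 in Homecage (11.03 to 839). Fear-Recall had the lowest mean, no pair of groups was separated, and Fear-Recall minus Context-Only was -0.51 (SE 0.61). Rab3a group means lay between 1448 and 1572 CPM, Rab3c between 403 CPM in Fear-Recall and 502 CPM in Context-Only, and Rab3d between 3.60 CPM in Context-Only and 6.87 CPM in Fear-Recall.

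The other genes of the Rab3 pathway were read from gene lists. Of the 13 genes that turn the Rab3 cycle (exchange factors, GTPase-activating subunits, prenylation enzymes and GDP dissociation inhibitors), 0 passed in pos against neg, with a median log2 difference of 0.02 against 0.02 over all genes. The 2 of smallest p were Rab3gap1, a subunit of the GTPase-activating complex, at -0.42 (edgeR adjusted p = 0.426) and Chm, a Rab escort protein, at 0.52. Of 6 effectors tested, 0 passed, 5 stood above 0 and the median was 0.30, with Sytl5 at 1.83 (SE 0.89), Rims2 standing at 0.44 (adjusted p = 0.267) and Rph3a, rabphilin, at 0.29. Of 27 fusion and active zone genes 0 passed (median -0.16), Cplx2, a complexin, standing at 0.44 (adjusted p = 0.12) and Rims3 at 0.49. The 2 Rab27 genes, relatives that share effectors, stood at 0.70 for Rab27a and 0.08 for Rab27b, and neither passed. DESeq2 called 0 of the cycle genes, 1 effector, 2 fusion genes and 0 Rab27 genes, against 3.64% of all genes.

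Dense-core vesicle genes held the single call. Scg2, a granin of peptide-containing vesicles, averaged 416 ± 73.0 CPM in neg and 835 ± 180.6 CPM in pos sums, with all pos values above all neg values (log2 difference 1.0, SE 0.14, edgeR adjusted p = 0.0172, 1 of 14 genes called against 0.287% of all genes, median of the list 0.08). The share of all genes separated in this way was not counted. Pos sums also held more inhibitory cells (37.8% against 19.1%), values of Scg2 within the classes are not given here, and the part of make-up was not tested. DESeq2 called 4 of the 14 dense-core genes, in the fit where it called 3.64% of all genes. In reporter-read against reporter-free cells, 5 genes of the lists passed edgeR, as did 2.24% of all genes. Vgf, a neuropeptide precursor, rose from 39.4 to 72.1 CPM (log2 difference 0.93, adjusted p = 0.00403), Chga from 145 to 185 CPM (0.35, adjusted p = 0.0453), Stx1a, a membrane SNARE, from 374 to 494 CPM (0.41, adjusted p = 0.0282) and Syn1, a synapsin, from 250.9 to 325 CPM (0.36, adjusted p = 0.0418). Rabac1, a prenylated Rab acceptor, fell from 566 to 488 CPM (-0.24, adjusted p = 0.0327).

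In pos Fear-Recall against Context-Only no gene of these lists passed edgeR, and list medians of 0.01 to 0.08 lay near the 0.02 over all genes. The cycle genes of smallest p were Rabac1 (-0.65) and Gdi2 (0.55), the effectors Sytl5 (1.98) and Syn1 (0.43), the dense-core genes Scg5 (-0.48) and Pcsk2 (0.32), and the fusion genes Syt2, which was at 0 in all Context-Only sums and at most 3.02 CPM in Fear-Recall, and Vamp1 (0.69). The Rab27 genes stood at 0.06 and 0.02. The lowest edgeR adjusted p among them was 0.970.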

How the data were processed

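Single cells of mouse mPFC were measured by Smart-seq2, per the labels' protocols. The authors deposited 1 table of raw read counts per gene and cell (whole numbers, not normalized). Bowtie 0.12.2 and the builds mm8 and mm10 are named in the submitters' processing notes, without saying which step used them, and the counting tool and strand setting are not given in the sources used here. Groups came from the source labels and gates from the titles. Nothing but the animal number says that animals of a group were handled apart, so p-values measure the spread between these samples, which may in part be technical. No library was identical to another (0 of 3530 cells).

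Cells were clustered with scanpy 1.11.5 (2000 variable genes, 30 components, 15 neighbours, Leiden resolution 1) with the 4 Rab3 genes kept out, and clusters were named from fixed marker lists. No doublet caller was run. Counts were summed per animal (10 or more cells) and tested with edgeR 4.0.16 in R 4.3.3 (quasi-likelihood test, TMM scaling, a filterByExpr count floor of 10 and a total of 15, Benjamini-Hochberg adjustment over all genes tested, threshold 0.05). The animal was a block where gates, classes or reporter reads were compared. DESeq2 1.42.0, RLE scaling, no filter on low counts, other clusterings, thinning to 100000 reads per cell, blocks and leaving out each animal were alternatives. Sums of pos neurons held 112 to 329 cells and 141604815 to 277685602 counts.

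The members and gene lists were chosen with earlier results of these data known. The genes named are the 4 members, list genes past the threshold or otherwise the 2 of smallest p, and the 5 genes most like each member. Sytl5, the tested effector with the largest difference between the gates, is named there besides. Same-numbered animals deviated together from their group means. The correlations were 0.102 to 0.740 in 7 of 7 pairs of pos sums and 0.192 to 0.683 in 28 of 28 pairs over all cells. The set number was therefore taken to pair the samples. The main fits between conditions did not use this pairing, so their SEs and p-values ignore it. A block of set number entered as an alternative fit only. The pairing comes from the numbers in the labels. Both count tests were tested on simulated data, where false calls exceeded the threshold for DESeq2 and stayed under it for edgeR. The simulated counts were independent, used the spread that edgeR estimated and held no animal or set effects. They therefore cannot show how either test behaves on sums that deviate together by set. Promoter windows came from RefSeq (GRCm38.p6) and gene models from GENCODE vM21. All 4 members matched both. One cluster is not reported here by name or drawn.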

Additional observations from a re-analysis of the deposited data

Results flagged for a closer look

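Of 72 groups of 4 to 10 animals whose Rab3 values were examined for a lone extreme animal, 2 held one, where chance gives about 1 in 20. In pos excitatory neurons, Rab3c of Context-Only animal 4 stood at 327 CPM, above the next highest of the 8 animals at 207.2 CPM. In the cluster led by Wdr11 and Hspb11, Rab3a of Homecage animal 2 stood at 256.4 CPM, below the next lowest of the 4 animals at 785 CPM. That animal's pos library also had the lowest share of cells with a reporter read (23.5%).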

How the results depend on the processing

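None of the 92 tested differences of the 4 members passed an adjusted p of 0.05 in the main edgeR fits. Of these differences, 41 took the other sign under at least 1 of the alternatives tried (107 of 1522 alternative values). The cause of each sign change was not tested. The numbers that pair animals, used as a replicate block, left every member short of the threshold (Rab3b in pos neurons, Fear-Recall minus Context-Only, -1.29). FR, FO, CO and HC stand below for Fear-Recall, Fear-Only, Context-Only and Homecage, and all values are log2 differences.

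DESeq2 passed the threshold for 5 differences. Between the gates these were Rab3b (0.70) and Rab3c (0.51), where 3.64% of all genes were called, and Rab3b in corticothalamic-like cells (0.45), with 1.57% called. For FR-CO they were Rab3b in pos excitatory (-1.58, 0.134% called) and pos corticothalamic-like cells (-1.45, 0.484% called). On simulated counts without animal or set effects, DESeq2 made more false calls than its threshold allows. Equal depth in edgeR passed 1, Rab3a by reporter reads (0.18), and the share of all genes called there is not given. DESeq2 and RLE scaling each turned Rab3a in all cells FO-HC (-0.0023) and Rab3c in pos excitatory FR-CO (-0.012). Leaving out clusters of few genes turned Rab3a to -0.023 (all cells FO-HC), 0.034 (gates, all cells), 0.033 (gates, excitatory) and -0.081 (pos inhibitory FO-CO). It turned Rab3c to 0.037 (all cells FO-HC), -0.11 (gate by class), -0.010 (pos excitatory FR-CO) and 0.021 (reporter reads). Dropping the animal block turned Rab3a to 0.010 (gates, excitatory), Rab3c to 0.034 (reporter reads) and Rab3d to -0.19 (gates, inhibitory). Equal depth turned Rab3a to 0.0021 (gates, excitatory) and 0.028 (pos Vip-like FR-CO), and Rab3b to -0.029 (gate by class). It turned Rab3c to -0.042 (all cells CO-HC), 0.0016 (all cells FR-FO), -0.19 (gate by class) and 0.035 (pos FR-CO). The set number as a replicate block turned Rab3b to 0.26 (all cells CO-HC) and 0.31 (all cells FO-HC). It turned Rab3c to 0.046 (all cells FO-HC), 0.023 (pos FO-CO) and -0.10 (pos FR-FO), and Rab3d to 0.78 (pos FO-CO), 0.97 (pos excitatory FO-CO) and 0.18 (pos inhibitory FO-CO).

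Leaving out 1 animal at a time turned the sign of 39 differences, and no member passed the threshold. For Rab3a the ranges were -0.058 to 0.24 (all cells CO-HC), -0.12 to 0.020 (FO-CO), -0.10 to 0.17 (FO-HC) and -0.18 to 0.098 (FR-HC). Further Rab3a ranges were -0.085 to 0.056 (gates, all cells), -0.066 to 0.085 (gates, excitatory), -0.054 to 0.22 (pos inhibitory FO-CO), -0.011 to 0.23 (pos FO-CO) and -0.23 to 0.13 (pos Vip-like FR-CO). For Rab3b they were -0.55 to 0.55 (all cells CO-HC), -0.061 to 0.32 (FO-CO), -0.41 to 0.68 (FO-HC) and -1.06 to 0.023 (FR-HC). Further Rab3b ranges were -0.047 to 0.16 (gates, excitatory), -0.78 to 0.034 (pos inhibitory FO-CO) and -0.60 to 0.043 (pos FO-CO). For Rab3c they were -0.13 to 0.43 (all cells CO-HC), -0.33 to 0.11 (FO-CO), -0.21 to 0.24 (FO-HC), -0.34 to 0.017 (FR-FO), -0.36 to 0.10 (FR-HC), -0.049 to 0.30 (gate by class) and -0.055 to 0.042 (reporter reads). In pos cells Rab3c gave -0.21 to 0.37 (excitatory FR-CO), -0.26 to 0.23 (inhibitory FR-CO), -0.073 to 0.42 (inhibitory FR-FO), -0.37 to 0.066 (FO-CO), -0.27 to 0.076 (FR-CO), -0.14 to 0.30 (FR-FO) and -0.70 to 0.088 (corticothalamic-like FR-CO). For Rab3d they were -0.87 to 0.23 (all cells CO-HC), -0.11 to 1.02 (FO-HC) and -0.058 to 0.41 (FR-FO). In pos cells Rab3d gave -0.61 to 0.67 (excitatory FO-CO), -1.20 to 0.080 (inhibitory FO-CO), -0.34 to 0.78 (inhibitory FR-CO), -0.78 to 0.48 (FO-CO), -0.0018 to 1.25 (FR-CO) and -1.23 to 0.89 (corticothalamic-like FR-CO). Subclass levels moved by over 1 SD under other clusterings in middle-layer and upper-layer intratelencephalic-like cells. With 2 or 3 animals a group, the pos comparisons can show large differences only, and Rab3d, with reads in 13.3% of cells, lies near the limit of detection.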
